A study of Mus musculus with 6 samples.

Results

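Megakaryocyte and platelet genes were followed in whole fetal livers of mouse embryos, as measured by every probe set that the platform annotation gives to 1 gene symbol among 9 listed genes. The listed genes were Gp5, Gp1bb, Gp1ba, Gp9, Itga2b, Pf4, Vwf, F2r and Cd9. Of these, 7 had such a probe set, and they were represented by 11 of the 12488 probe sets on the array. Gp1ba and Itga2b had none and were not analysed here. The embryos were 3 Rb null and 3 wild type; all came from matings of 129sv mice heterozygous for Rb, were untreated and were taken at embryonic day 12.5. Each liver was dissociated in saline, and its total RNA was read on an Affymetrix array of its own. The sources used here do not give the mutant allele, the litters or the sex of the embryos. The comparison addresses which transcripts of the liver differ when Rb is missing from the whole embryo.

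Megakaryocytes are large polyploid cells that shed platelets, and in mid-gestation the fetal liver is one of their sites of production beside its main output of red cells. Gp1ba, Gp1bb, Gp9 and Gp5 encode the subunits of the glycoprotein Ib-IX-V complex, the platelet receptor for von Willebrand factor, which is the product of Vwf and is also made by endothelium. Itga2b encodes the alpha chain of the fibrinogen receptor and Pf4 a chemokine of platelet granules. F2r encodes the thrombin receptor PAR1, which endothelium and mesenchyme carry as well, and mouse platelets are known to sense thrombin through the products of F2rl2 and F2rl3 instead. Cd9 encodes a tetraspanin that is abundant on platelets and is made by many other cells.

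Genes of megakaryocytes are known targets of GATA and ETS transcription factors, whose core motifs are GATA and GGAA. The 250 bases before the RefSeq start (build GRCm38.p6) are shown for Gp5 and F2r, which were higher in Rb null livers, and for Cd9, which did not pass the test. Capitals mark GATA or its reverse complement TATC and GGAA or its reverse complement TTCC. Gp5 lay at chr16:30310782-30311031 on the minus strand, F2r at chr13:95618467-95618716 on the minus strand and Cd9 at chr6:125494761-125495010 on the minus strand.
Gp5: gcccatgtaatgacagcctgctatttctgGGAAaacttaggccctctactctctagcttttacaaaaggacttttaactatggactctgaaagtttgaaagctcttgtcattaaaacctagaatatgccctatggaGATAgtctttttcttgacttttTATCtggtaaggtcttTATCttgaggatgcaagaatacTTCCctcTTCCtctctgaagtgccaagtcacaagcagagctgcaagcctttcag
F2r: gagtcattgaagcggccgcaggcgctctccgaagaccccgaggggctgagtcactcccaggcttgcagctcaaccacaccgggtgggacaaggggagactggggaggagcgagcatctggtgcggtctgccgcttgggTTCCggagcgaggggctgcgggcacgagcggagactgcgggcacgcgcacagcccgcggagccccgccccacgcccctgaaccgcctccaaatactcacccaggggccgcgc
Cd9: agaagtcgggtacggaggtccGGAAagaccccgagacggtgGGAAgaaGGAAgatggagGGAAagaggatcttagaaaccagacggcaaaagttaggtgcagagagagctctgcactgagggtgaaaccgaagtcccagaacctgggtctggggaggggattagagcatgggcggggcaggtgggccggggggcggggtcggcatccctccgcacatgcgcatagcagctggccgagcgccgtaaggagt
The Gp5 window held 3 matches to GATA and 3 to GGAA on either strand. The F2r window, of which 70.8% was G or C, held 0 matches to GATA and 1 to GGAA, and the Cd9 window held 0 and 4. Among the 8 members with an entry, 5 had a GATA match and 8 had a GGAA match. Of all 32851 windows of the same length, 53.6% held GATA and 93.4% held GGAA, so neither letter motif set these genes apart.

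Most measured members were higher in Rb null livers. Probe sets with a mean signal over the 6 arrays above 150.1 were tested, and 8 of the 11 member probe sets, from 6 genes, passed that filter. At a limma adjusted p below 0.05, 6 of these 8 were higher and 0 were lower, against 12.8% higher and 9.08% lower among all 6793 tested probe sets. The 6 belonged to Gp5, Gp1bb, Vwf and F2r, and 3 of them read F2r alone. By gene, 4 of the 6 tested had a higher probe set, against 13.1% of 5273 genes taken by 1 probe set each. The members were chosen with earlier results of these data known, so a share above that of all genes may partly follow from that choice. All 3 Rb null livers lay above all 3 wild type livers on 7 of the 8, against 22.9% of all tested probe sets. Each change below is a log2 ratio of Rb null over wild type with its SE from the fit, taken after adding an offset of 50.02 to the signals. That offset understates the change of dim probe sets. The dimmest F2r probe set had a wild type mean below the filter and entered the test through its Rb null level, so the counts were also taken without a filter. There 6 of all 11 member probe sets were higher and 0 were lower, against 5.88% higher among 12422 probe sets, and the median log2 fold change was 0.37 for the 11 and 0.03 for all. The number of megakaryocytes, these RNAs per megakaryocyte and the share of other cells cannot be told apart in RNA of a whole organ.

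**Figure D1:**
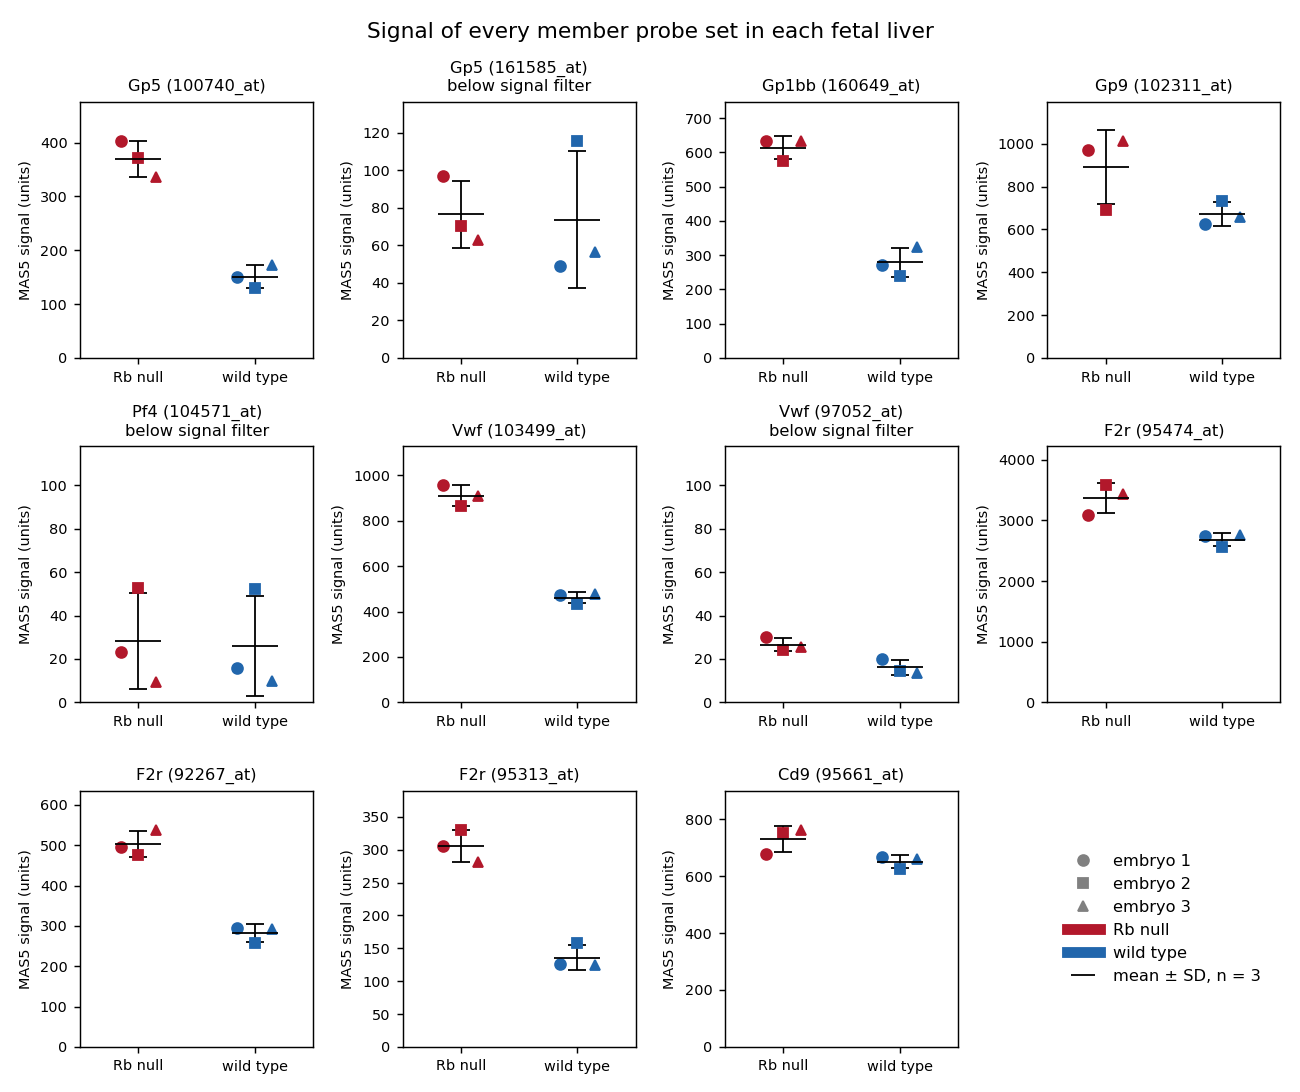
MAS5 signal (vertical axis, linear, from 0) of each of the 11 member probe sets in Rb null livers (red, left) and wild type livers (blue, right). Each symbol is 1 embryo, and bars give the mean ± SD of 3 embryos. The groups are apart for the brighter Gp5 probe set, Gp1bb, all F2r probe sets and both Vwf probe sets, and narrowly for Cd9. They meet for Gp9, Pf4 and the dim Gp5 probe set.

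The 2% trimmed means of the arrays lay between 500.22 and 500.25 signal units, a level their common scaling sets. The median signal, which it does not set, separated the genotypes, at 197.65 to 203.3 in Rb null and 176.55 to 186.5 in wild type arrays (p = 0.1 by an exact permutation test, the minimum for 3 and 3 arrays). Scaling the arrays to equal medians shifted the median change of all tested probe sets by -0.12 and gave 479 higher and 1363 lower probe sets, against 867 and 617 as deposited. The 3 prime to 5 prime signal ratio of the actin control was 1.19 to 1.31 in Rb null and 1.12 to 1.21 in wild type arrays, and that of Gapdh was 0.829 to 0.888 and 0.915 to 0.924. Rb1, the mutated gene, was lower on both of its probe sets, by log2 fold changes of -2.10 ± 0.09 and -1.71 ± 0.12, and on the first it read 135.9 ± 7.52 in Rb null livers and 750.1 ± 42.3 in wild type livers (SD, n = 3 each). Whether its probes lie in the deleted part is not given, so this level need not check the labels.

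Among the subunits of the von Willebrand factor receptor, Gp5 and Gp1bb were each about doubled in Rb null livers. The brighter Gp5 probe set read 403.0, 370.4 and 335.1 in Rb null livers, against 150.7, 128.9 and 172.8 in wild type livers. The lowest Rb null liver was 1.94 times the highest wild type liver. Its log2 fold change was 1.07 ± 0.12 (95% interval 0.79 to 1.34, limma adjusted p = 8.7e-04), or 2.09-fold, and 99.6% of all tested probe sets had a smaller value. Its wild type mean of 150.8 lay at the signal filter, where the size of a fold is uncertain.

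Gp1bb, the beta chain of glycoprotein Ib, read 632.3, 576.4 and 633.7 in Rb null livers, against 272.5, 238.9 and 324.2 in wild type livers. The groups were far apart, and the Rb null livers varied less among themselves, with a coefficient of variation of 5.32% against 15.4% in wild type livers. The log2 fold change was 1.02 ± 0.11 (95% interval 0.77 to 1.27, limma adjusted p = 6.5e-04), or 2.03-fold. In the RefSeq annotation Gp1bb overlaps the neighbouring gene Septin5, so a probe set of either could read RNA of both. A probe set annotated to both genes, outside the member rule and below the signal filter, read 161.8, 124.6 and 144.6 in Rb null livers, against 96.8, 108.0 and 89.2 in wild type livers. Its groups did not overlap either, and without a filter its log2 fold change of 0.39 ± 0.14 did not pass (limma adjusted p = 0.13).

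Gp9, the small subunit that joins the others in the complex, did not pass the test. Its probe set read 969.8, 692.2 and 1013.7 in Rb null livers, against 626.3, 732.0 and 658.8 in wild type livers. Rb null embryo 2 fell inside the wild type range, and the other two Rb null livers lay above it. The log2 fold change was 0.37 ± 0.14, with a 95% interval of 0.06 to 0.68 and a limma adjusted p = 0.089. Without Rb null embryo 2 it was 0.53 and passed (limma adjusted p = 0.013). The 95% intervals of Gp9 and of Gp5 or Gp1bb did not meet, but whether the subunits differ in their change was not tested. The other Gp5 probe set was dim and read 96.7, 70.0 and 62.7 in Rb null livers, against 49.2, 115.6 and 56.2 in wild type livers, so its groups overlapped and it did not repeat the change of the brighter one.

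Vwf, the ligand of this receptor, had the smallest p of the members. Its tested probe set read 955.4, 865.4 and 909.9 in Rb null livers, against 473.7, 434.5 and 475.4 in wild type livers. Both groups were tight, and the lowest Rb null liver was 1.82 times the highest wild type liver. The log2 fold change was 0.91 ± 0.07 (95% interval 0.74 to 1.08, limma adjusted p = 2.3e-04), or 1.88-fold. The other Vwf probe set read 30.1, 24.3 and 25.5 in Rb null livers, against 20.2, 14.5 and 13.7 in wild type livers. Those groups did not overlap, but signals so far below the filter were not shown to be above background, and without a filter the change of 0.21 ± 0.08 did not pass (limma adjusted p = 0.15).

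F2r, the gene of the thrombin receptor PAR1, was higher on each of its 3 probe sets, by different amounts. The middle one in brightness read 495.2, 475.4 and 538.0 in Rb null livers, against 295.9, 257.1 and 293.3 in wild type livers. The dimmest read 305.9, 330.2 and 281.8 in Rb null livers, against 125.7, 157.4 and 124.0 in wild type livers. The brightest read 3090.0, 3576.9 and 3426.7 in Rb null livers, against 2739.4, 2557.2 and 2757.5 in wild type livers. No wild type liver reached an Rb null liver on any of them. The log2 fold changes were 0.74 ± 0.09 (limma adjusted p = 0.0014) for the middle one and 0.94 ± 0.12 (limma adjusted p = 0.0014) for the dimmest. That of the brightest was 0.32 ± 0.07 (limma adjusted p = 0.013), and after scaling to equal medians it was 0.18 and did not pass (limma adjusted p = 0.13). The sources used here do not say which F2r transcripts each probe set binds.

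The thrombin receptors that mouse platelets are known to use were read by other probe sets. F2rl3, the gene of PAR4, read 456.3, 450.8 and 489.4 in Rb null livers, against 331.2, 356.6 and 339.6 in wild type livers, a log2 fold change of 0.39 ± 0.08 (limma adjusted p = 0.011). All Rb null livers lay above all wild type livers. F2rl2, the gene of PAR3, read 236.8, 256.4 and 209.5 in Rb null livers, against 212.6, 160.2 and 188.3 in wild type livers. These groups overlapped at 1 embryo each, and the change of 0.26 ± 0.12 did not pass (limma adjusted p = 0.16).

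Cd9, like Gp9, did not pass the test, and Pf4 was too dim to be tested. Cd9 read 676.8, 751.1 and 762.3 in Rb null livers, against 667.8, 625.2 and 660.5 in wild type livers. The lowest Rb null liver was just above the highest wild type liver, and the log2 fold change was 0.15 ± 0.07 (95% interval -0.01 to 0.32, limma adjusted p = 0.17). Cd9 is the neighbour of Vwf on chromosome 6, with 1 annotated gene, Gm33144, lying between them. Pf4 read 23.0, 52.8 and 9.6 in Rb null livers, against 15.8, 52.2 and 10 in wild type livers. Its groups overlapped fully, and all 6 values lay far below the signal filter. A probe set this dim cannot show a change of Pf4 at the precision of these arrays.

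**Figure D2:**
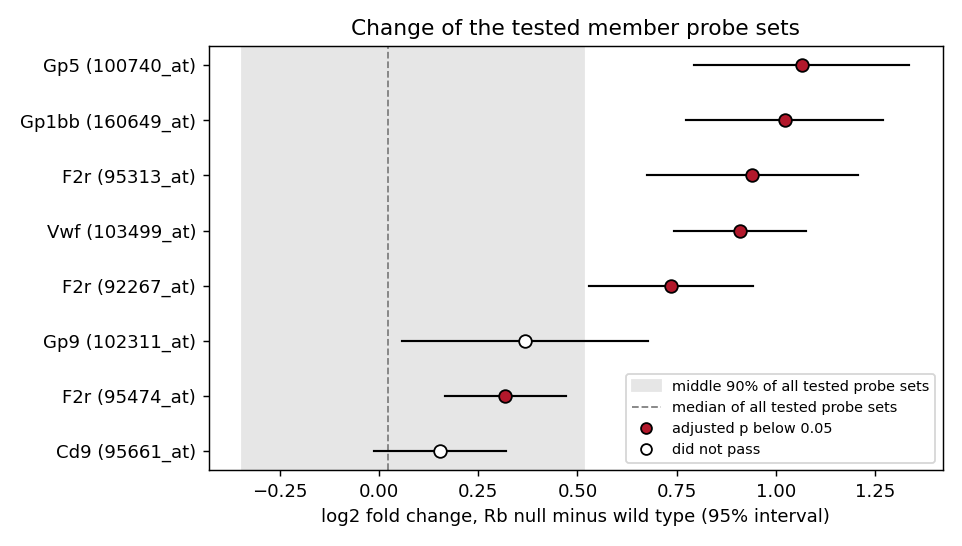
Log2 fold change, Rb null minus wild type, of the 8 tested member probe sets (points) with 95% intervals from the limma fit (lines); filled points passed at an adjusted p below 0.05. The grey band is the middle 90% of all tested probe sets, from -0.35 to 0.52, and 5 of the 8 points lie above it, while Gp9, Cd9 and the brightest F2r probe set lie within it.

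The label of megakaryocyte RNA rested on few readings. Of 16 megakaryocyte markers, 8 had a single-symbol probe set and 5 passed the filter, namely Gp5, Gp1bb, Gp9, Vwf and P2rx1. Pf4, the integrin chain Itgb3 and the adhesion receptor Selp stayed below it, with Selp at 21.5, 21.9 and 16.4 in Rb null livers, against 11.6, 19.7 and 18.4 in wild type livers. The summed signal of the 8 markers was 3164 to 3619 in Rb null livers, against 1997 to 2099 in wild type livers. All tested markers of this list except P2rx1 are members, so its sum and median largely restate the member readings. P2rx1, an ATP-gated channel of platelets, read 582.0, 517.1 and 601.9 in Rb null livers, against 417.5, 432.1 and 381.9 in wild type livers (0.42 ± 0.09, limma adjusted p = 0.012).

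Vwf and F2r are not particular to megakaryocytes, and markers of several other cells moved in the same livers. Of 17 tested endothelial markers 7 were higher and 0 were lower, 1 of the 7 being Vwf itself. Another of the 7, Emcn, had a wild type mean of 136.2, below the signal filter. It entered the test through its Rb null mean of 230.6. The summed signal of the endothelial markers was 9210.2 to 9822 in Rb null livers, against 7118 to 7355 in wild type livers. Kdr (0.66 ± 0.08, limma adjusted p = 0.0015) and Sox18 (0.66 ± 0.08, limma adjusted p = 0.0010), a vascular receptor and a vascular transcription factor, came next after Vwf in size of change. The endothelial markers Pecam1, at 16.8 to 29.8 in Rb null livers and 18.2 to 64.6 in wild type livers, and Nos3 lay below the filter. Mesenchyme and stellate cell markers were higher for 6 of 10, including Col3a1 (0.76 ± 0.07), with sums of 15256 to 16925 in Rb null livers and 12042 to 12327 in wild type livers. Their part in the higher Vwf and F2r signals was not tested.

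Blood cell markers also moved. Granulocyte markers were higher for 5 of 10, including the secreted protein genes Ltf (0.77 ± 0.12) and S100a8 (0.57 ± 0.05), with sums of 12724 to 13364 in Rb null livers and 10107 to 10347 in wild type livers. Of 13 macrophage markers 4 were higher, including the lysozyme gene Lyz2 (0.48 ± 0.10), and 1 was lower. On leaving out 1 embryo 2 to 4 were higher and 0 to 1 lower. Under the other alternatives 1 to 4 were higher and 0 to 1 lower. The macrophage sums were 11742 to 12839 in Rb null livers and 11612 to 13006 in wild type livers. For mast cells and basophils 2 of 3 tested markers were higher, Kit and Prg2 (0.58 ± 0.09), while the other 10 markers on the array, all tryptase and chymase genes and the IgE receptor genes Fcer1a and Ms4a2 among them, stayed below the filter. The sums of that list were 2457 to 2635 in Rb null livers and 1786 to 1967 in wild type livers. Progenitor markers were higher for 2 of 6 tested, Kit again and Myb (0.26 ± 0.07), and a further 6 stayed below the filter. Myb lost its call under 8 of 16 alternatives, among them median scaling (limma adjusted p = 0.32). It also lost it without any embryo except Rb null embryo 1 (limma adjusted p from 0.051 to 0.085). The progenitor sums were 6015 to 6486 in Rb null livers and 4999 to 5033 in wild type livers.

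Erythroid markers went the other way, with 9 of 15 lower and 0 higher, and summed to 89258 to 96632 in Rb null livers, against 111188 to 122828 in wild type livers. Hepatoblast markers were higher for 2 of 15 and lower for 2, with sums of 43262 to 45553 in Rb null livers and 45406 to 48977 in wild type livers. The background for these lists, which take 1 probe set per gene, was 13.1% higher and 9.50% lower among 5273 genes. The marker lists too were chosen with earlier results of these data known. What part these cells have in the members' changes was not tested.

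**Figure D3:**
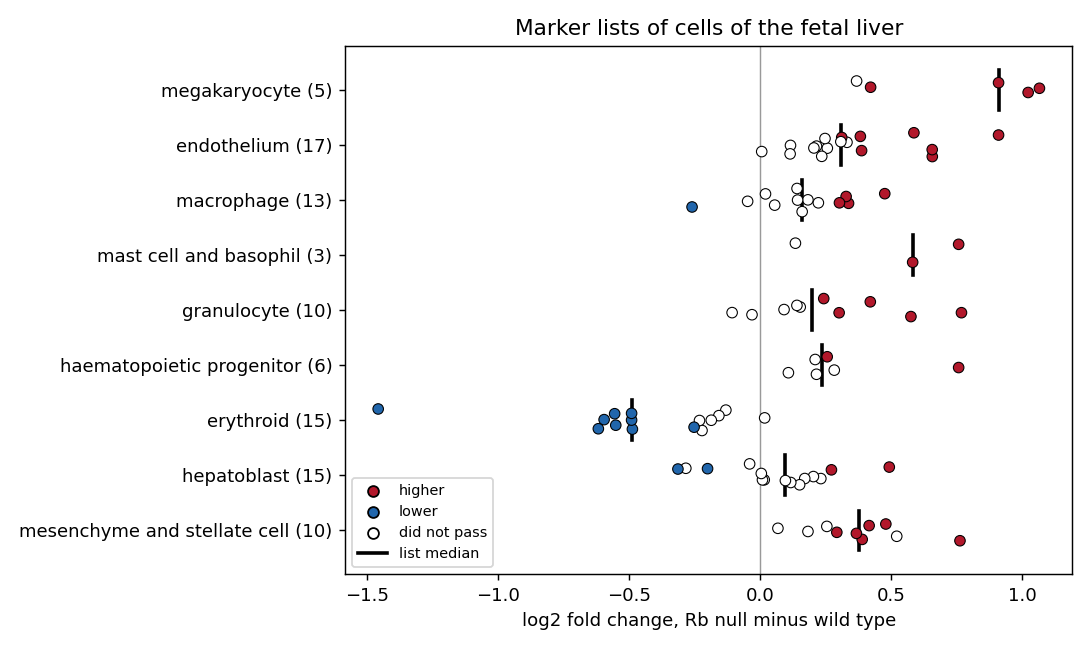
Log2 fold change, Rb null minus wild type, of each tested marker gene (points, with small vertical scatter for legibility) by cell type; the number tested is in parentheses and thick lines are list medians. Red points were higher and blue points lower at an adjusted p below 0.05. The megakaryocyte median of 0.91 is the value of Vwf, and all points of that list except P2rx1 are members. The erythroid median is -0.49.

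Beyond the members, 7 lists of other megakaryocyte and platelet genes held 172 genes, of which 111 were tested. Of these, 30 were higher and 11 were lower, and 70 did not pass. The 30 are 27.0% of those tested, against 13.1% of all genes, and the 11 are 9.91%, against 9.50%. The lists were chosen with earlier results of these data known, so shares above those of all genes may partly follow from that choice. The median log2 fold change was 0.16, against 0.02 for all 5273 genes. Scaling to equal medians gave 19 higher and 16 lower. On leaving out 1 embryo there were 19 to 24 higher and 7 to 10 lower, with the fewest higher without Rb null embryo 2. A further 22 genes were too dim to be tested, and 8 of them had all Rb null livers above all wild type livers while 1 had all below, against 14.0% and 4.23% of the 2978 genes below the filter. Of the 30 higher genes, 3 (Kit, Cxcl12 and Fgg) were also on a marker list of another cell type. Those lists are short, and further genes among the 30 are made by other cells too, as given below. Fgg lost its call after median scaling (limma adjusted p = 0.22). It also lost it without Rb null embryo 1 or 2 or wild type embryo 1 or 2 (limma adjusted p from 0.074 to 0.093).

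**Figure D4:**
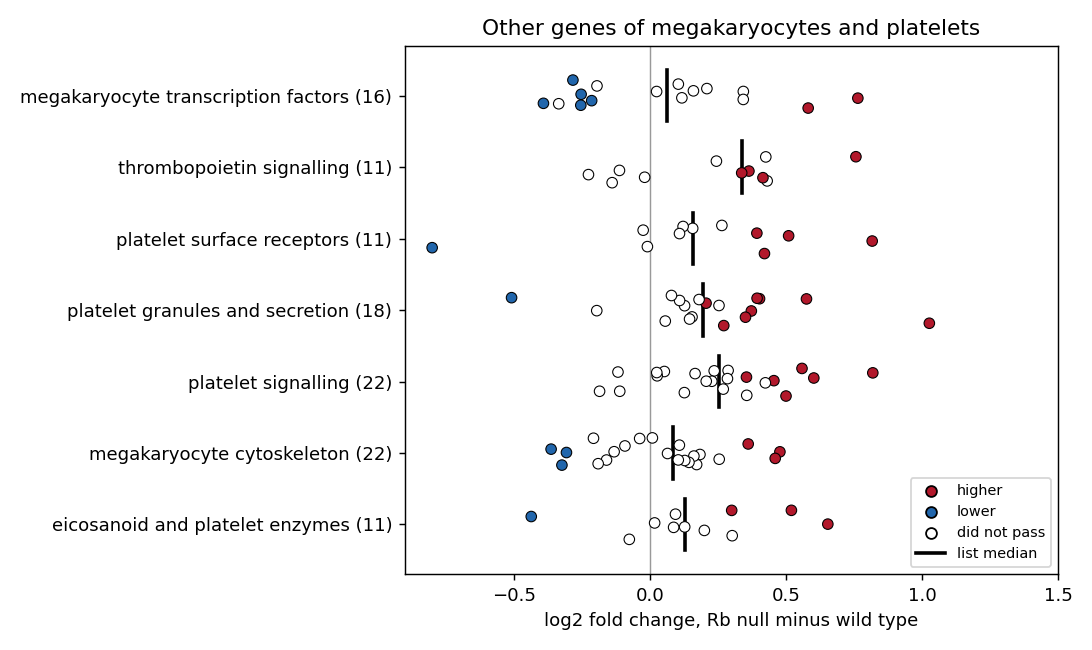
Log2 fold change, Rb null minus wild type, of each tested gene (points, with small vertical scatter for legibility) in 7 lists of other megakaryocyte and platelet genes; the number tested is in parentheses and thick lines are list medians. Platelet signalling has 6 higher (red) and 0 lower genes, and the transcription factors have 2 higher and 5 lower (blue) genes.

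Platelet signalling genes were higher for 6 of 22 and lower for 0 (13.1% and 9.50% of all genes), with a median of 0.25. Without Rb null embryo 2, and likewise under each of the 3 other normalizations and without a signal filter, 3 were higher. Rasgrp2, the exchange factor that activates Rap1 in platelets, read 630.7, 645.9 and 681.7 in Rb null livers, against 346.2, 370.7 and 328.6 in wild type livers (0.82 ± 0.08, limma adjusted p = 4.3e-04). Rgs10, a regulator of G protein signalling, rose by 0.60 ± 0.08, and Fermt3, the kindlin that activates integrins in blood cells, by 0.56 ± 0.09. The lipid phosphatase gene Inpp5d (0.50 ± 0.14), the adaptor gene Lcp2 (0.46 ± 0.12) and the exchange factor gene Vav1 (0.35 ± 0.10) passed less firmly. Vav1 lost its call on leaving out any 1 embryo (adjusted p from 0.066 to 0.098). Inpp5d (adjusted p from 0.064 to 0.11) and Lcp2 (adjusted p from 0.075 to 0.0998) lost theirs without Rb null embryo 2 or 3 or wild type embryo 2 or 3. Another Vav1 probe set read -0.12 ± 0.11. Rgs10, Fermt3, Inpp5d, Lcp2 and Vav1 are made by other white blood cells as well.

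Of 11 tested platelet surface receptors, 4 were higher and 1 was lower (13.1% and 9.50% of all genes), with a median of 0.16. Slc2a3, a glucose transporter of platelets and other cells, read 327.1, 393.1 and 292.9 in Rb null livers, against 156.2, 173.5 and 177.4 in wild type livers (0.82 ± 0.12, limma adjusted p = 0.0029). Cd63, a tetraspanin of granule membranes, rose by 0.51 ± 0.07, and P2rx1 and F2rl3 are given above. The tetraspanin gene Cd82 fell by 0.80 ± 0.10, while its other probe set read -0.16 ± 0.17. The members' tetraspanin, Cd9, thus lay between Cd63 and Cd82.

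Granule and secretion genes were higher for 8 of 18 and lower for 1 (13.1% and 9.50% of all genes), with a median of 0.19. On leaving out any 1 embryo 3 to 5 were higher. Vegfa, a growth factor of vessels that many cells make, read 393.6, 449.2 and 351.0 in Rb null livers, against 149.6, 221.2 and 143.9 in wild type livers (1.03 ± 0.15, limma adjusted p = 0.0030). F5, coagulation factor V, which the liver also makes, rose by 0.58 ± 0.07, and Clu, the chaperone clusterin, by 0.40 ± 0.07, although another Clu probe set read -0.18 ± 0.10. Hps4, a gene of dense granule formation (0.39 ± 0.10), lost its call without Rb null embryo 1 or 2 or wild type embryo 1 or 3 (adjusted p from 0.058 to 0.072). The protease inhibitor gene Timp3 (0.37 ± 0.10) lost its call without any embryo except wild type embryo 1 (adjusted p from 0.066 to 0.092). Vamp8, a SNARE of platelet granule release, fell by 0.51 ± 0.09 on one probe set and by 0.46 ± 0.06 on another.

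Of 11 tested genes of thrombopoietin and related signalling, 4 were higher and 0 were lower (13.1% and 9.50% of all genes). Their median was 0.34. Kit, the receptor of stem cell factor, read 898.7, 879.7 and 845.5 in Rb null livers, against 543.9, 412.0 and 546.3 in wild type livers (0.76 ± 0.11, limma adjusted p = 0.0024). The chemokine gene Cxcl12 rose by 0.42 ± 0.07 and the Kit ligand gene Kitl by 0.36 ± 0.09. A further Cxcl12 probe set read 0.11 ± 0.11 and did not pass. The Kitl call was lost without Rb null embryo 1 or 2 or wild type embryo 2 or 3 (adjusted p from 0.065 to 0.0898). Sh2b3, an adaptor that restrains thrombopoietin signalling, passed at 0.34 ± 0.10 and lost its call on leaving out any 1 embryo (adjusted p from 0.065 to 0.14).

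Of 16 tested transcription factors of the lineage, 5 were lower, against 9.50% of all genes, and 2 were higher, which is near the 13.1% of all genes. Their median was 0.06. Ets1, an ETS factor, read 340.6, 375.0 and 342.0 in Rb null livers, against 214.1, 148.3 and 203.6 in wild type livers (0.76 ± 0.13, limma adjusted p = 0.0051). Zfp36l1, an RNA-binding protein gene kept on this list, rose by 0.58 ± 0.12. Nfe2, which is needed for platelet release and is also active in erythroid cells, read 2124.0, 2052.6 and 2207.2 in Rb null livers, against 2734.1, 2908.6 and 2774.7 in wild type livers (-0.39 ± 0.05, limma adjusted p = 0.0023). Zfpm1, the partner of GATA1 called FOG1, fell by 0.28 ± 0.05. Gata1 fell by 0.25 ± 0.06 and Lmo2 by 0.25 ± 0.05, but their other probe sets read 0.18 ± 0.11 and 0.10 ± 0.05. The Gata1 call was lost without Rb null embryo 2 or 3 or wild type embryo 1 or 3 (adjusted p from 0.061 to 0.074), and the Lmo2 call without Rb null embryo 1 (adjusted p = 0.052) and after quantile (adjusted p = 0.078) or cyclic loess normalization (adjusted p = 0.058). Erythroid cells share Gata1, Zfpm1, Nfe2 and Lmo2 with megakaryocytes, and of 15 erythroid markers 9 were lower, as given above.

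Cytoskeleton genes were higher for 3 of 22 and lower for 3, with a median of 0.08. The higher count is near the 13.1% of all genes, and 9.50% of all genes were lower. The higher genes were Tpm4, a tropomyosin needed for platelet formation (0.48 ± 0.05), Actn1, an alpha-actinin (0.46 ± 0.07), and Vcl, which encodes vinculin (0.36 ± 0.07). Actn1 was higher on each of its 3 tested probe sets and Vcl on both of its own. The dimmer Vcl probe set had a wild type mean of 101.7, below the signal filter. It entered the test through its Rb null mean of 199.9. The lower genes were the calpain gene Capn1 (-0.36 ± 0.08) and the tubulin genes Tuba4a (-0.32 ± 0.10) and Tubb2a (-0.31 ± 0.05). Tuba4a lost its call without any embryo except wild type embryo 1 (adjusted p from 0.085 to 0.12), and another Tubb2a probe set read 0.06 ± 0.20.

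Among 11 enzymes of eicosanoids, coagulation and platelets, 3 were higher and 1 was lower (13.1% and 9.50% of all genes). Their median was 0.13. Alox12, the platelet lipoxygenase, read 781.4, 790.6 and 782.9 in Rb null livers, against 473.8, 481.2 and 487.1 in wild type livers (0.65 ± 0.06, limma adjusted p = 4.7e-04). Both groups were tight. F2, prothrombin (0.52 ± 0.06), and F10, coagulation factor X (0.30 ± 0.07), are products of liver cells. F10 lost its call without Rb null embryo 1 or 2 or wild type embryo 2 or 3 (adjusted p from 0.057 to 0.078). F10 also lost it after quantile, median and cyclic loess normalization (limma adjusted p = 0.068, 0.13 and 0.056). Its other probe set read -0.12 ± 0.11. The monoglyceride lipase gene Mgll fell by 0.44 ± 0.10, and it no longer passed without Rb null embryo 2 or wild type embryo 1 or 3 (adjusted p from 0.054 to 0.068).

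Within a genotype the members did not rank the embryos alike. Rb null embryo 3 gave the highest Rb null signal on 4 of the 8 tested member probe sets, and embryos 1 and 2 on 2 each. Among wild type livers, embryo 2 gave the lowest signal on 6 of the 8. The coefficient of variation over 3 livers was 4.94% to 19.5% in Rb null livers and 3.50% to 15.4% in wild type livers. Gp9 varied most among Rb null livers, and Gp1bb among wild type livers.

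The genes outside the members whose 6 values were most like the mean standardised profile of the tested member probe sets were Slc39a4, Ctsl, Sfrp1, Erdr1 and Ndrg1. They encode a zinc transporter, the protease cathepsin L, a secreted Wnt antagonist, the protein of Erdr1 and a stress-responsive protein. Pearson's r over 6 arrays was 0.9998, 0.998, 0.998, 0.997 and 0.997 in that order. These arrays fall into their genotypes, so that r mostly measures a clean step between them, and 346 of 6159 candidate probe sets had an r above 0.95. The log2 fold changes were 0.51 ± 0.07, 0.38 ± 0.05, 0.63 ± 0.09, 1.13 ± 0.06 and 0.85 ± 0.07, and other tested probe sets of Slc39a4 (-0.07 ± 0.09) and Erdr1 (0.11 ± 0.09) did not share the step.

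**Figure D5:**
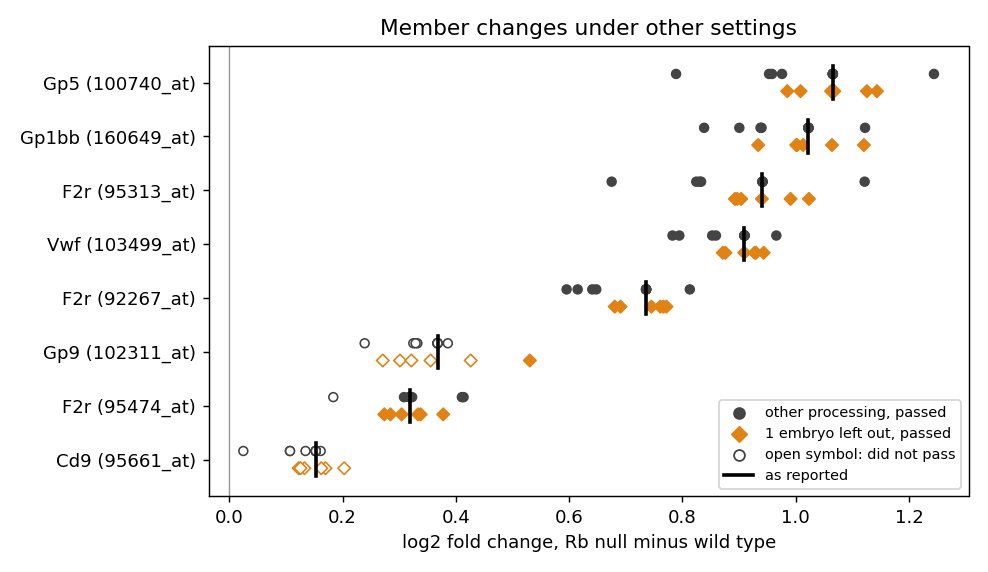
Log2 fold change, Rb null minus wild type, of the 8 tested member probe sets as reported (black lines), under other processing (grey circles) and with 1 embryo left out (orange diamonds); open symbols did not pass at an adjusted p below 0.05. All values are above 0; Gp5, Gp1bb, Vwf and 2 of the F2r probe sets passed throughout, the brightest F2r probe set failed after median scaling, and Gp9 passed without Rb null embryo 2.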

How the data were processed

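Total RNA (6 ug per embryo) of 6 fetal livers was made into biotin-labelled cRNA and read on 1 Affymetrix array each. The deposited intensity values are MAS5 signals, per the submitters' processing notes; the version and scaling target are not given in the sources used here. The values are linear, and their equal 2% trimmed means show a common scaling. Depth does not apply to arrays, and 3 arrays per genotype limit the precision.

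Of 12422 probe sets without the 66 controls, 10833 had 1 gene symbol in the platform annotation, 396 had several and 1193 had none. An offset of 50.02 was added (0.1 of the trimmed mean) and log2 was taken. Probe sets with a mean signal above 150.1 (0.3 of the trimmed mean) were tested with limma 3.58.1 in R 4.3.3, with an intensity trend and two-sided moderated tests. Benjamini-Hochberg adjustment ran over all 6793 tested probe sets, with a threshold of 0.05. The procedure was tested on simulated data. List genes stood by their brightest tested probe set. Array-level values were compared by exact permutation tests.

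The members and lists were chosen with earlier results of these data known. Genes named were the members, Rb1 and the 5 probe sets most like the members. Up to 6 genes past the threshold per pathway list, by size of change, and up to 3 per marker list were also named. F2rl2, Emcn and genes below the filter were named after their values were seen. From the marker lists a part of these is given. Alternatives were quantile, median and cyclic loess normalization, offsets of 0.02 and 0.3 of the trimmed mean, no filter and a filter of 500.2. Others were no trend, a robust trend, the replicate block, a 2-fold minimum and leaving out each embryo. A further one left out suffixed probe sets, whose names end in _s_at, _f_at, _r_at, _g_at or _i_at. Promoters are from RefSeq.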

Additional observations from a re-analysis of the deposited data

How the results depend on the processing

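The count of 6 higher member probe sets was 5 to 6 under the other normalizations, offsets and priors. It was 6 without a filter, with the replicate block and without the suffixed probe sets. On leaving out 1 embryo it was 6 to 7, and 0 were lower in each. With the stricter filter 4 member probe sets were left and 2 were higher, and 2 were higher by at least 2-fold. Over all probe sets, the 867 higher and 617 lower became 479 and 1363 after median scaling and 513 higher with the stricter filter, which tests fewer probe sets; the cause of the median scaling shift is the higher median of the Rb null arrays. On leaving out 1 embryo they ranged from 517 to 706 higher and from 319 to 528 lower, falling by over 1.5 times without Rb null embryo 1 (530 and 352) or 2 (517 and 372) and, for lower ones, without wild type embryo 3 (319). With the replicate number as a block there were 813 higher and 606 lower, and all 6 member calls held, but the calls of Sh2b3 (adjusted p = 0.069), Inpp5d (0.065), Lcp2 (0.058), Vav1 (0.053) and Tuba4a (0.052) were lost. A pairing of the embryos by number was not shown. Deviations of same-numbered arrays correlated at -0.06, 0.05 and 0.27, and not every array correlated best with its own number. With 3 arrays per genotype these values cannot exclude a pairing, and the litters are not given. Of 132 member values under the alternatives, 130 kept their direction and their side of the threshold, with 1 call lost (F2r) and 1 gained (Gp9) as described above. Of 37 named genes of the pathway lists, 25 kept their call under every alternative tried. After quantile normalization, median scaling and cyclic loess normalization alike, Sh2b3, Hps4, Timp3, Inpp5d, Lcp2, Vav1 and F10 lost theirs. Without a signal filter the first 6 of these, Kitl and Tuba4a did, while F10 kept its call. The cause was not tested. Of 238 pathway list counts under the alternatives 44 moved by over 1.5 times, and of 306 marker list counts 46 did.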

Other observations

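Among the pathway genes too dim to be tested, 4 with all Rb null livers above all wild type livers are given here by their values. These readings were not shown to be above background, and the genes were picked after their values were seen. Runx1, a transcription factor of blood stem cells and megakaryocytes, read 103.4, 133.3 and 99.2 in Rb null livers, against 42.3, 44.0 and 63.6 in wild type livers. P2ry1, an ADP receptor of platelets, read 93.8, 133.1 and 99.6 in Rb null livers, against 32, 50.8 and 28.5 in wild type livers. Mef2c, a transcription factor of megakaryocytes and many other cells, read 162.8, 162.2 and 150.0 in Rb null livers, against 76.4, 95.1 and 102.3 in wild type livers. Nbeal2, which is needed for platelet alpha granules, read 40.5, 168.9 and 137.0 in Rb null livers, against 31.3, 40.4 and 37.1 in wild type livers, and Rb null embryo 1 lay just above the highest wild type liver.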
